A study of Mus musculus with 8 samples.

Results

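The 10 genes described here encode the NF-kappaB transcription factor subunits and a set of their inhibitors and feedback regulators in mouse CD4+ T cells. They are the 5 subunit genes Nfkb1, Nfkb2, Rel, Rela and Relb, the inhibitor gene Nfkbia and the nuclear family members Nfkbid and Nfkbiz. The others are the co-activator gene Bcl3 and the feedback gene Tnfaip3. All 10 were chosen by symbol, and each matched 1 row among the 34745 genes of the deposited table. All passed the filter on low counts that left 14690 genes. RNA-seq libraries came from splenic CD4+ T cells of wild type C57BL/6 mice, with 2 libraries in each of 4 groups. Th17 and Treg libraries were made from cells kept for 3 days in Th17 or Treg differentiation conditions, whose cytokines are not named in the labels. Th0 libraries came from naive T cells activated with antibodies to CD3 and CD28 over 3 days, and naive libraries from CD4+ T cells taken straight from the spleen. Age and sex of the mice, pooling of animals and the separateness of cultures are not stated either. The p-values below therefore reflect how far these libraries vary, and that variation may be technical.

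NF-kappaB proteins bind DNA as pairs. In resting cells, inhibitor proteins built from ankyrin repeats hold these pairs in the cytoplasm, and signals that activate the IKK kinases have the inhibitors destroyed and the pairs set free. In T cells the antigen receptor and CD28 reach IKK through a signalling complex that contains MALT1, while several receptors of the TNF family also start the processing of the p100 precursor through the kinase NIK. Many genes of the family, Nfkbia and Tnfaip3 among them, are themselves switched on by NF-kappaB, which gives the pathway its feedback loops. In mouse T cells, c-Rel is known for its part in the induction of Foxp3. The nuclear proteins encoded by Nfkbid and Nfkbiz are known for their parts in Th17 development.

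NF-kappaB recognises the kappaB site, so the promoter windows of the family are shown first. Windows of 300 bases, from 250 bases before to 50 bases after each annotated transcript start, were taken from RefSeq on GRCm38.p6 for the 7 members that matched, Nfkb2, Rel, Rela, Nfkbia, Nfkbid, Bcl3 and Tnfaip3. Nfkb1, Relb and Nfkbiz are not shown. Of these 7 genes, 6 held at least 1 match to the kappaB consensus on either strand, as did 8 of their 12 windows. Among all 32851 windows of the table, 8.46% held a match, and among all 27025 genes 9.55% did. The looser frame GGGNNNNNCC, searched on both strands and containing the consensus, was found in all 12 windows of the family and in 50.8% of all windows. GC content ran from 47% to 75% in the 12 windows, against a median of 52.7% over all windows, and its part in the number of matches was not tested. A match is a description of letters in a window and says nothing of binding.

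The windows below are printed 5′ to 3′ on the strand of the gene, with kappaB consensus matches in capitals. Nfkb2, Nfkbia and Nfkbid are shown because they had the 3 greatest rises in Th17 against Th0, Bcl3 and Tnfaip3 because they had the greatest rise and fall against naive cells, and Rela as the member whose window held no match.
Nfkb2, chr19:46304487-46304786, plus strand: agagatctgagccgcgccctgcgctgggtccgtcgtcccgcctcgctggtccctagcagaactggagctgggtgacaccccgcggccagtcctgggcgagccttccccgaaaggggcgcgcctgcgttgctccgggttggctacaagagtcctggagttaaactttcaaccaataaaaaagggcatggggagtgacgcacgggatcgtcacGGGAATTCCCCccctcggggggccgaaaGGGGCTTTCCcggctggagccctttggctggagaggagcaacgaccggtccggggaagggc
Nfkbia, chr12:55492598-55492897, minus strand: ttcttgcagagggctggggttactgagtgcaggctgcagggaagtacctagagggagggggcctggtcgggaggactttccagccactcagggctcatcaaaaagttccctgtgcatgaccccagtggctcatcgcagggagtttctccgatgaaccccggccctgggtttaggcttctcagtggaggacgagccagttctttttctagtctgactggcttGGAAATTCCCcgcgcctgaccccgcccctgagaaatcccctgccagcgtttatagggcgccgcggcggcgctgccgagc
Nfkbid, chr7:30422156-30422455, plus strand: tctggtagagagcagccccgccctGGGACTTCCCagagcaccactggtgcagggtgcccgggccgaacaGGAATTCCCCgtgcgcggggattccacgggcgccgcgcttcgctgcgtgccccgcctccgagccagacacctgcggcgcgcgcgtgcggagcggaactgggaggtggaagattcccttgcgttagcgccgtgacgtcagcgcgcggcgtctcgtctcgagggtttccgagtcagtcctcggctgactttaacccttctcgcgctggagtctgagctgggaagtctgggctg
Bcl3, chr7:19822706-19823005, minus strand: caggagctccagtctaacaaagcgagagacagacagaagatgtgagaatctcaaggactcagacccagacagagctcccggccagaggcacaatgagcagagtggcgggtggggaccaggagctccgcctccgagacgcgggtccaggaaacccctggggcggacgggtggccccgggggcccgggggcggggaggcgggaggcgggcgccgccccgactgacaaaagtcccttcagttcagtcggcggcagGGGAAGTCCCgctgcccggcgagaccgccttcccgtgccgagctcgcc
Tnfaip3, chr10:19015361-19015660, minus strand: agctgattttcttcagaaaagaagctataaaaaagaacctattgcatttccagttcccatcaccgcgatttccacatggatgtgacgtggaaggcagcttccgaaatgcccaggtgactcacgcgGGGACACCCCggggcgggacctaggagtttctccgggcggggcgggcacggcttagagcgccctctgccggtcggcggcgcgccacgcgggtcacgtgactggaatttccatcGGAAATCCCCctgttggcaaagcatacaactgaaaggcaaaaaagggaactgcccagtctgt
Rela, chr19:5637291-5637590, plus strand: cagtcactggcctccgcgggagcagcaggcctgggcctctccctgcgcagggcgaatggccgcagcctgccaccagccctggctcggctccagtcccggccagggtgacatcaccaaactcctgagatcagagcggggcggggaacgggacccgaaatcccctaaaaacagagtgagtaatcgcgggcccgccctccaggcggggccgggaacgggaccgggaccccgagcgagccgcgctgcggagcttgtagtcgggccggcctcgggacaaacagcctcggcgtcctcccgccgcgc

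Positions of matches are given by their first base on the gene strand, counted from the transcript start. In Nfkb2 the window shown held the palindrome GGGAATTCCC at -39 and GGGGCTTTCC at -11. Its other windows, which overlap each other, shared the match GGGACTTTCC, at 11 from the second start and -225 from the third, and the second held a further match at -236. The Nfkbia window held GGGAATTTCC on the opposite strand at -29. The Nfkbid window held GGGACTTCCC at -226 and a match on the opposite strand at -181, while the windows of the other Nfkbid starts held none. The match in Bcl3 lay at 3, just inside the transcript, and read GGGAAGTCCC. The Tnfaip3 window shown held GGGACACCCC at -125 and GGGGATTTCC on the opposite strand at -12, while the window of its other start held none. The Rel window, not printed, held GGGAAATCCC at -92. Overlapping matches and strands counted once, the family held 11 separate stretches, of which Nfkb2 held 4.

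**Figure D1:**
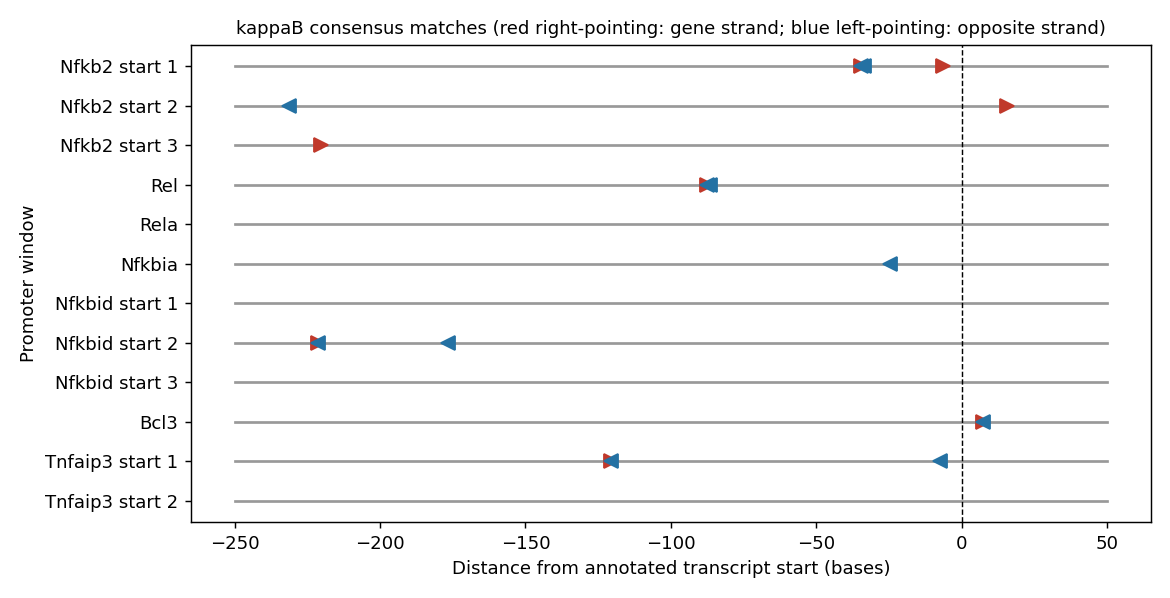
Positions of kappaB consensus matches in the 12 RefSeq promoter windows of 7 NF-kappaB family genes, as distance in bases from the annotated transcript start (dashed line). Triangles mark single matches by strand; Nfkb2 has matches in each of its 3 windows, while Rela has none.

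Libraries held 12504463 to 22443368 counted reads. Replicate libraries of each group differed by more than counting noise, with a ratio of chi-square to its degrees of freedom between 8.77 and 17.4. Defining markers were then checked. Foxp3 lay at 317 and 269.7 CPM (the count relative to library size, scaled with TMM factors) in Treg libraries, and Il17f, a cytokine gene of Th17 cells, at 136 and 89.5 CPM in Th17 libraries, against 0.594 and 1.15 CPM in Th0. Il17a, the defining Th17 cytokine gene, measured 60.9 and 33.7 CPM in Th17 and 57.4 and 34.3 CPM in Treg libraries, so that it did not separate the labels, while Il17f was at 23 and 13 CPM in Treg. Naive libraries held Foxp3 at 95 and 101 CPM. They also held transcripts of other spleen cells, with 14 myeloid and dendritic cell markers summing to 3969 to 4250.2 CPM. The same sum was 134 to 140.4 CPM in Th17, 120.1 to 148 CPM in Treg and 37.2 to 44.3 CPM in Th0. Bulk libraries cannot tell fewer cells of a type from less RNA per cell.

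The genes lie on 7 chromosomes, with coordinates as the deposited table gives them (8 of 10 identical to GENCODE on GRCm38, Nfkb2 and Nfkbia differing at their ends). Chromosome 7 carries Relb (19606217 to 19629438, minus strand), Bcl3 (19808462 to 19822770, minus) and Nfkbid (30421732 to 30428746, plus), and chromosome 19 carries Rela (5637483 to 5648130, plus) and Nfkb2 (46304737 to 46312090, plus). Nfkb1 lies on chromosome 3 (135584655 to 135691547, minus), Rel on chromosome 11 (23736847 to 23770970, minus), Nfkbia on chromosome 12 (55489411 to 55492647, minus), Nfkbiz on chromosome 16 (55811375 to 55838899, minus) and Tnfaip3 on chromosome 10 (19000910 to 19015657, minus).

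All 10 genes were well expressed in every library, with counts from 546 for Nfkbid in a Treg library to 26998 for Tnfaip3 in a naive library. Compared per length, on the deposited FPKM scale, Nfkbia was the most abundant member in every group, at 204 ± 12.9 FPKM in Th17, 105 ± 5.89 in Treg, 91.9 ± 4.6 in Th0 and 158 ± 6.11 in naive cells (SD, n = 2 each). The next place changed with the state. It was held by Nfkb2 in Th17 and Treg cells (79.2 and 56.9 FPKM), by Rel in Th0 (48.9 FPKM) and by Tnfaip3 in naive cells (78.9 FPKM). By group mean, the lowest member was Relb in Th17 (18.3 FPKM), Nfkbiz in Treg (12.4 FPKM), Nfkbid in Th0 (15.6 FPKM) and Bcl3 in naive cells (12.1 FPKM). In Th17 the order at the bottom is not resolved, since Nfkb1 and Tnfaip3 averaged 20.2 ± 1.5 and 20.7 ± 7.98 FPKM (SD, n = 2) and Tnfaip3, at 15.1 FPKM, was the lowest in replicate 3. In Treg cells, Nfkbiz, Tnfaip3, Relb and Nfkbid lay close together, between 12.4 and 13.8 FPKM, and their order is not resolved beyond the spread.

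**Figure D2:**
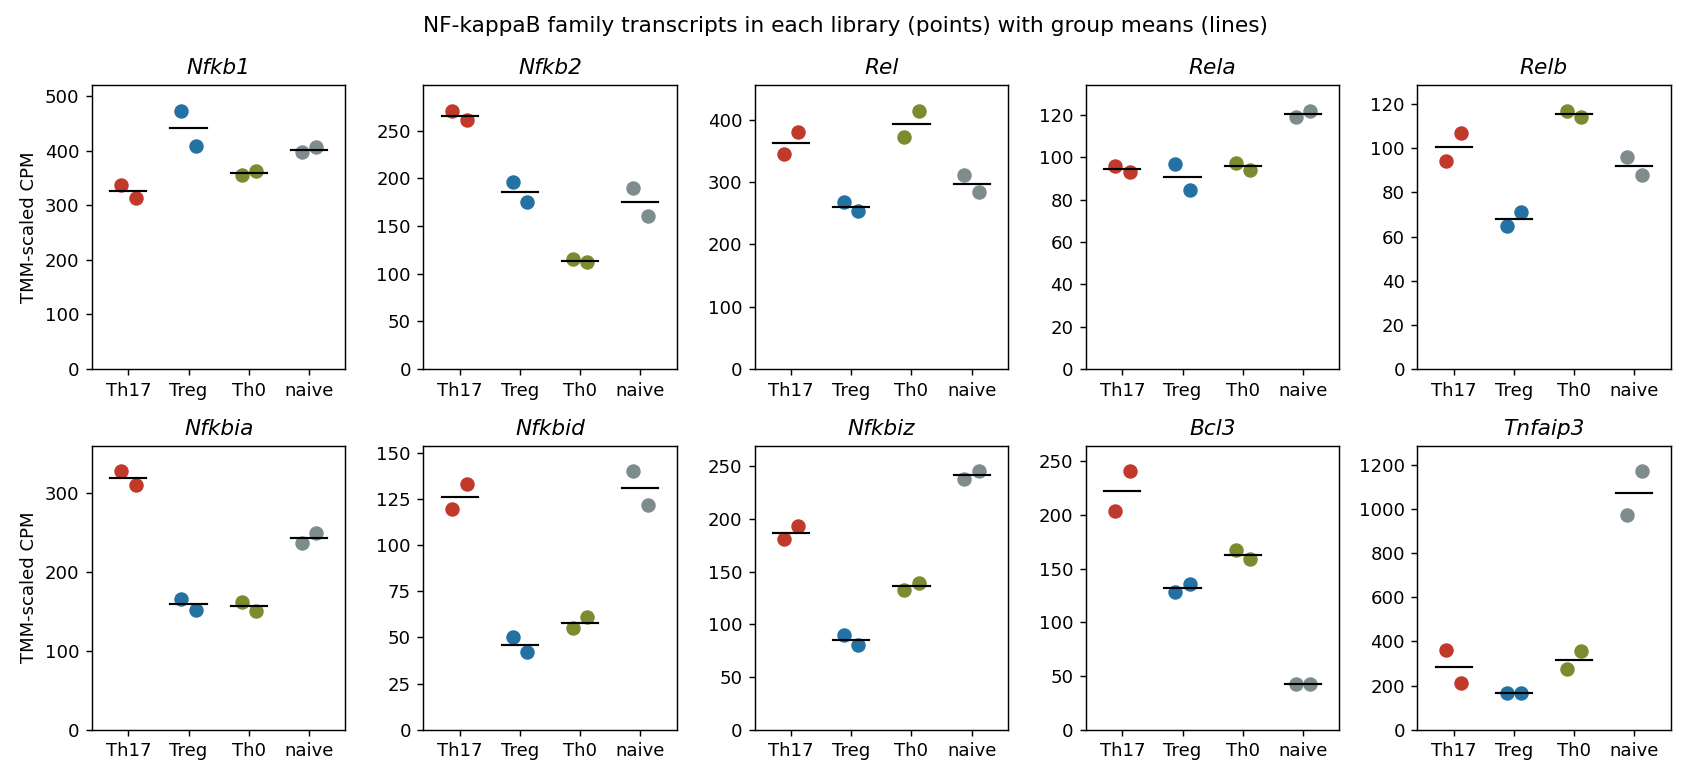
TMM-scaled CPM of the 10 NF-kappaB family genes in each of the 8 libraries (points), with group means as lines, for Th17, Treg, Th0 and naive cells. Nfkb2 and Nfkbia are highest in Th17, Tnfaip3 is highest in naive cells at 975 and 1170.4 CPM, and Bcl3 is lowest there at 42.6 and 42.9 CPM.

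Differentiation conditions were set against activation alone and against each other. In Th17 against Th0, 5 of the 10 genes rose (Nfkb2, Nfkbid, Nfkbia, Nfkbiz and Bcl3) and none fell by edgeR's quasi-likelihood test (adjusted p under 0.05), where 28.7% of all genes tested were called, 16.1% of them higher and 12.6% lower as shares of all genes. At an unadjusted p under 0.05 there was still no fall, and DESeq2 gave the same counts. In Treg against Th0, 2 rose (Nfkb1 and Nfkb2) and 5 fell (Rel, Relb, Nfkbiz, Bcl3 and Tnfaip3), where 46.2% of all genes were called, 25.7% higher and 20.6% lower. In Th17 against Treg, 8 rose and only Nfkb1 fell, with Rela not called, where 29.2% of all genes were called, 14.8% higher and 14.5% lower. Median log2 fold changes of the 10 genes were 0.21 in Th17 against Th0, -0.32 in Treg against Th0 and 0.66 in Th17 against Treg, beside 0.048, 0.085 and -0.031 over all genes. The Th17 and Treg comparisons with Th0 share the same Th0 libraries.

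**Figure D3:**
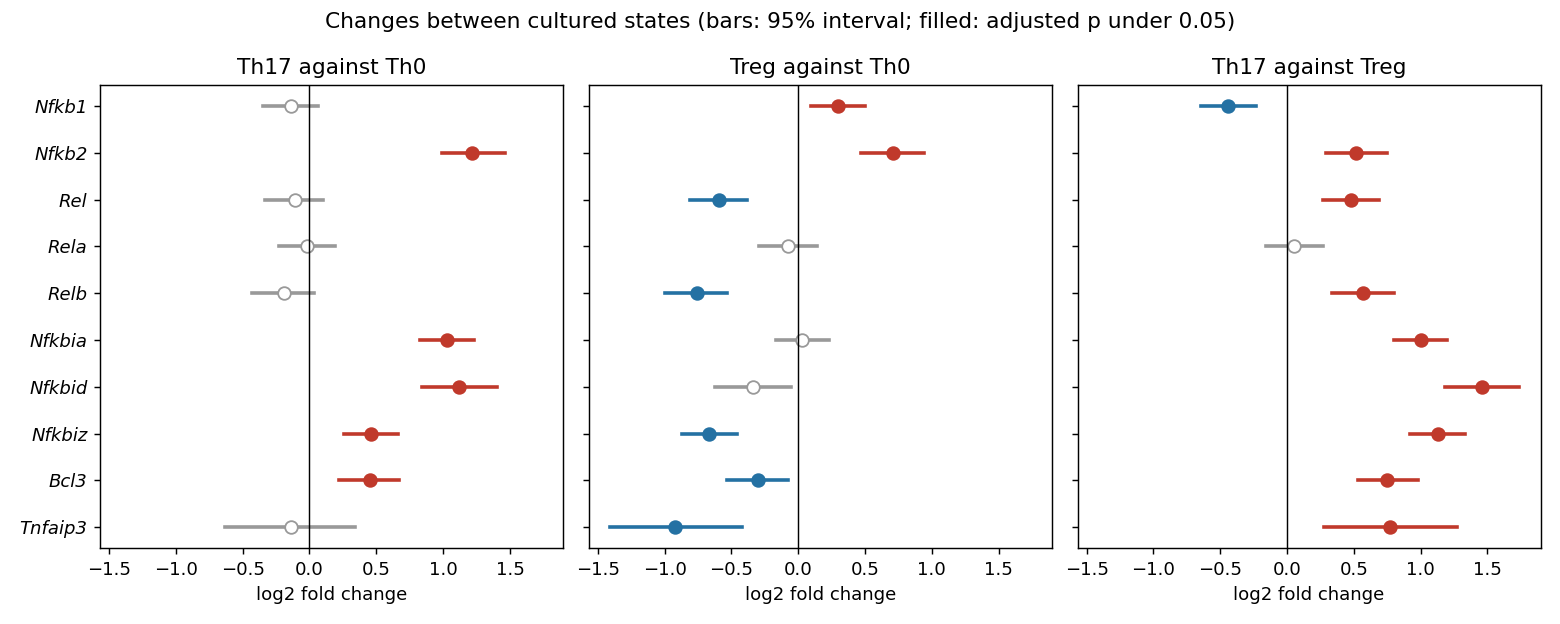
Log2 fold changes with 95% intervals of the 10 genes of Th17 and of Treg over Th0 cells, and of Th17 over Treg cells (edgeR, 2 libraries a group). Filled points passed an adjusted p of 0.05, red higher and blue lower; Nfkb2, Nfkbia and Nfkbid rise by 1.22, 1.03 and 1.12 in Th17 against Th0.

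Among the subunits, Nfkb2 had the greatest change in Th17 against Th0, while Relb had the greater estimate in the other contrasts of cultured cells. Nfkb2 encodes p100, which is processed to the DNA-binding p52 and otherwise retains RelB in the cytoplasm. It measured 271 and 261 CPM in Th17 libraries and 196 and 175 CPM in Treg libraries, against 115 and 112 CPM in Th0 libraries, while naive libraries had 189.6 and 161 CPM. Th17 lay above all other groups, Th0 below all of them, and Treg and naive overlapped. Its log2 fold change reached 1.22 in Th17 against Th0 (edgeR, SE 0.1, adjusted p = 6.74e-05), a 2.34-fold difference. In Treg against Th0 it was 0.71 (edgeR, SE 0.1, adjusted p = 0.00066), and in Th17 against Treg 0.52 (edgeR, SE 0.1, adjusted p = 0.0058). None of these calls was lost when single libraries were left out. On the opposite strand Psd shares 6.52% of its exon bases, but Psd had at most 25 counts in a library, and AC114539.1, which shares 11.6%, was not analysed here.

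Nfkb1, which encodes p105 and its product p50, went the other way between the differentiated states. It measured 337 and 314 CPM in Th17 libraries and 473 and 409 CPM in Treg libraries, against 356 and 362 CPM in Th0, with 397 and 406 CPM in naive libraries. Treg was highest and Th17 lowest by group mean, and no neighbours in the order of the 4 groups overlapped. The whole range of group means spanned only 1.35-fold, and no neighbouring pair was called. Against naive, edgeR adjusted p was 0.233 for Treg and 0.138 for Th0. In Th17 against Treg the log2 fold change was -0.44 (edgeR, SE 0.091, adjusted p = 0.0074). This call was lost without Treg replicate 2 (-0.33, edgeR adjusted p = 0.0747). Treg cells were 0.3 above Th0 (edgeR, SE 0.091, adjusted p = 0.0245), a call that did not hold without Th0 replicate 1 (0.24, edgeR adjusted p = 0.13), Th0 replicate 3 (0.27, 0.097) or Treg replicate 2 (0.2, 0.186). Its change of -0.14 in Th17 against Th0 was not called (95% interval -0.35 to 0.064, edgeR adjusted p = 0.274).

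Rel and Relb shared a pattern, low in Treg cells and high in Th0 and Th17. Rel encodes c-Rel, the subunit prominent in lymphocytes, and measured 346 and 381 CPM in Th17 and 268 and 254 CPM in Treg, against 372 and 415 CPM in Th0, with 311 and 284 CPM in naive libraries. Relb, whose product pairs with p52, measured 94.1 and 107 CPM in Th17 and 64.7 and 71 CPM in Treg, against 117 and 114 CPM in Th0, with 96.1 and 88.1 CPM in naive libraries. For either gene both Treg libraries lay below all 6 others. In Treg against Th0, Rel fell by 0.59 on the log2 scale (edgeR, SE 0.095, adjusted p = 0.00102) and Relb by 0.76 (edgeR, SE 0.1, adjusted p = 0.000441). In Th17 against Treg they rose by 0.48 (edgeR, SE 0.095, adjusted p = 0.00588) and 0.57 (edgeR, SE 0.1, adjusted p = 0.00397). These 4 calls held without any single library. In Th17 against Th0 neither was called, with intervals of -0.33 to 0.099 for Rel and -0.43 to 0.036 for Relb. Among all pairs of members, Rel and Relb were the most alike over the 8 libraries, with a root mean square difference of 0.119 between their centred log2 CPM values.

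Rela, encoding p65, the main transactivating subunit of many cell types, hardly varied among cultured cells. It measured 95.8 and 93.1 CPM in Th17 and 96.9 and 84.7 CPM in Treg, against 97.5 and 93.9 CPM in Th0, and the 3 groups overlapped. Its 95% intervals were -0.23 to 0.19 in Th17 against Th0, -0.29 to 0.14 in Treg against Th0 and -0.16 to 0.27 in Th17 against Treg. Naive libraries, at 119 and 122 CPM, lay above all cultured ones.

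The make-up of the subunit transcripts can be read per length as each gene's share of the summed FPKM of the 5 subunits. This measure was chosen after the values were seen, and it is a description with no test. Nfkb2 made up 39.2 ± 1.26% in Th17 and 33.7 ± 0.408% in Treg cells, against 20.4 ± 0.649% in Th0 and 29.1 ± 1.98% in naive cells (SD, n = 2 each). Rel was the largest share in Th0, at 32 ± 2.01%, and took 24.3 ± 1.5% in Th17, 21.5 ± 0.608% in Treg and 22.5 ± 0.36% in naive cells. Nfkb1 took 10 ± 0.551% in Th17 and 16.7 ± 0.615% in Treg, against 13.4 ± 0.0531% in Th0 and 14 ± 0.908% in naive cells. Relb had the smallest mean share in every group, from 7.58 ± 1% in Treg to 12.7 ± 0.415% in Th0. The summed subunit FPKM was 205 and 199 in Th17 libraries and 176 and 162 in Treg libraries. It was 151 and 154 in Th0 and 188 and 176 in naive libraries. FPKM holds no TMM factors, which were 0.928 and 0.93 in Th0 and 1.03 and 1.04 in Treg. These sums are therefore not compared between groups.

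**Figure D4:**
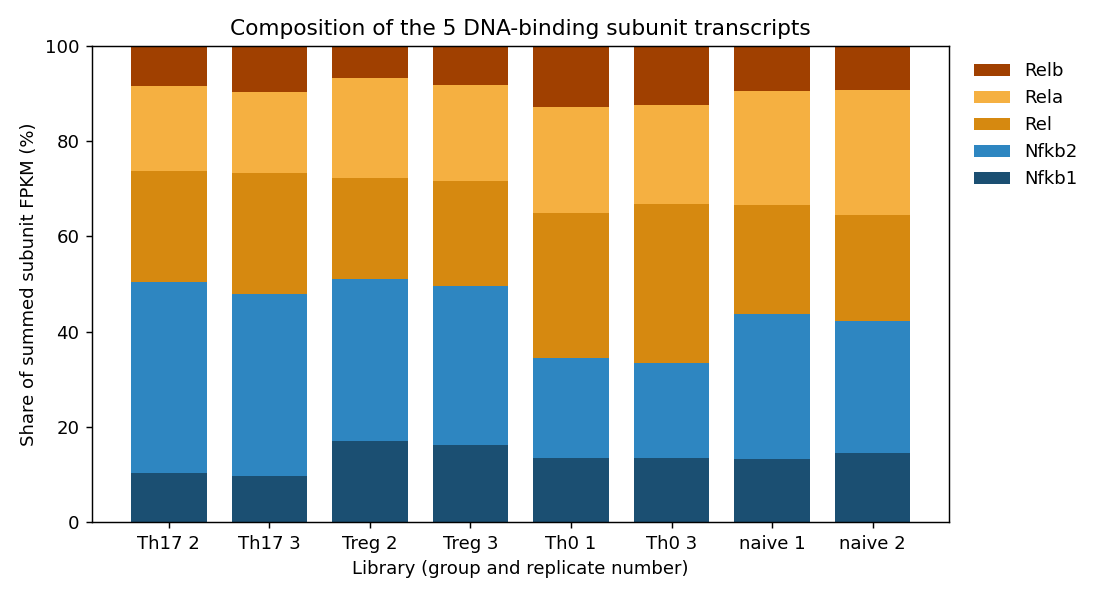
Share of each subunit gene in the summed FPKM of Nfkb1, Nfkb2, Rel, Rela and Relb, in percent, for each of the 8 libraries. The Nfkb2 share is 40.1% and 38.3% in Th17 libraries and 20.9% and 20% in Th0 libraries, where Rel is the largest.

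Nfkbia encodes IkappaB alpha, the classic cytoplasmic inhibitor and an early NF-kappaB target. Nfkbia measured 327 and 310.2 CPM in Th17 libraries and 166 and 152 CPM in Treg libraries, against 162 and 150.4 CPM in Th0, while naive libraries had 236 and 249 CPM. Treg and Th0 overlapped, and Th17 lay above every other library. Nfkbia differed by 1.03 on the log2 scale in Th17 against Th0 (edgeR, SE 0.088, adjusted p = 7.07e-05) and 1 in Th17 against Treg (edgeR, SE 0.088, adjusted p = 8.96e-05). In Treg against Th0 it was 0.028 (95% interval -0.17 to 0.23, edgeR adjusted p = 0.822). Set against the summed subunit FPKM of the same library, Nfkbia stood at a ratio of 1.04 and 0.977 in Th17 and 0.619 and 0.623 in Treg, against 0.63 and 0.574 in Th0, with 0.814 and 0.92 in naive libraries. That ratio was also chosen after the values were seen.

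Nfkbid and Nfkbiz encode IkappaBNS and IkappaB zeta, nuclear members of the inhibitor family that act on NF-kappaB already bound to DNA. Nfkbid measured 119.7 and 133 CPM in Th17 and 50 and 41.9 CPM in Treg, against 55 and 61.1 CPM in Th0, with 139.9 and 122 CPM in naive libraries. Nfkbiz measured 181 and 193 CPM in Th17 and 90.3 and 80.8 CPM in Treg, against 133 and 139 CPM in Th0, with 238 and 245 CPM in naive libraries. Both genes ran in the same order of groups, naive, Th17, Th0 and Treg, with naive and Th17 overlapping for Nfkbid only. Nfkbid had the greatest difference of the family in Th17 against Treg, at 1.46 (edgeR, SE 0.13, adjusted p = 7.52e-05), a 2.75-fold higher level. Nfkbiz differed there by 1.13 (edgeR, SE 0.091, adjusted p = 5.42e-05). In Th17 against Th0, Nfkbid rose by 1.12 (edgeR, SE 0.12, adjusted p = 0.000266) and Nfkbiz by 0.46 (edgeR, SE 0.089, adjusted p = 0.0054).

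Nfkbiz fell by 0.67 in Treg against Th0 (edgeR, SE 0.09, adjusted p = 0.00044). Nfkbid, at -0.34 (SE 0.13), was not called there (edgeR adjusted p = 0.0527). It passed without Th0 replicate 1 (-0.46, edgeR adjusted p = 0.0481) or Treg replicate 2 (-0.46, 0.0459), and with DESeq2 (-0.39, DESeq2 adjusted p = 0.0269), as it did under RLE scaling, in the unfiltered table and in a fit of Treg and Th0 libraries alone.

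Bcl3 encodes a nuclear member of the inhibitor family that binds p50 and p52 pairs and can switch transcription on. It measured 204 and 240.5 CPM in Th17 and 128 and 136 CPM in Treg, against 167 and 159 CPM in Th0. Naive libraries had only 42.6 and 42.9 CPM, and no groups overlapped. Bcl3 rose in Th17 against Treg by 0.75 (edgeR, SE 0.1, adjusted p = 0.00078). In Th17 against Th0 it rose by 0.45 (edgeR, SE 0.099, adjusted p = 0.0097), a call that did not hold without Th0 replicate 3 (0.4, edgeR adjusted p = 0.0664). Bcl3 fell by 0.3 in Treg against Th0 (edgeR, SE 0.1, adjusted p = 0.033). That fall did not hold without any 1 of naive replicate 1, naive replicate 2, Th0 replicate 1, Th0 replicate 3, Treg replicate 2 or Treg replicate 3 (-0.25 to -0.37, edgeR adjusted p = 0.053 to 0.178). The antisense gene Gm16175, which shares 6.51% of the exon bases of Bcl3, had no count in any library.

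Tnfaip3 encodes A20, a ubiquitin-editing enzyme that shuts off signals to IKK. It measured 359 and 213 CPM in Th17 libraries and 167 and 168 CPM in Treg libraries, against 275 and 357 CPM in Th0, with 975 and 1170.4 CPM in naive libraries. The Th17 libraries lay far apart and overlapped with Th0, and both lay above Treg. Tnfaip3 fell by 0.92 in Treg against Th0 (edgeR, SE 0.22, adjusted p = 0.00805), which was lost without Treg replicate 2 (-0.91, edgeR adjusted p = 0.0521). In Th17 against Treg it rose by 0.77 (edgeR, SE 0.22, adjusted p = 0.0276). That call was lost without Treg replicate 2 (0.77, edgeR adjusted p = 0.131) or Treg replicate 3 (0.77, 0.109), and without Th17 replicate 2 the difference shrank to 0.34 (edgeR adjusted p = 0.151). Its change of -0.14 in Th17 against Th0 had an interval of -0.63 to 0.34.

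Markers of other cells moved between the cultured groups too. The 10 B cell markers summed to 570.1 to 615 CPM in Th17 and 154 to 158 CPM in Treg, against 215 to 224 CPM in Th0. Of them 8 rose and none fell in Th17 against Th0, and 9 rose and none fell in Th17 against Treg. The 14 myeloid and dendritic cell markers summed to 134 to 140.4 CPM in Th17 and 120.1 to 148 CPM in Treg, against 37.2 to 44.3 CPM in Th0. Of these, 9 rose and none fell in Th17 against Th0, 11 rose and 1 fell in Treg against Th0, and 2 rose and 6 fell in Th17 against Treg. Flt3 alone gave 56.4 and 54 CPM in Th17 and 15.9 and 9.12 CPM in Treg, while Lyz2 gave 8.05 and 7.65 CPM in Th17 and 27.6 and 21.5 CPM in Treg. The CD8 T cell markers Cd8a and Cd8b1 summed to 122 CPM in either Th17 library and 426 to 469 CPM in Treg, against 176 CPM in either Th0 library. B cells express Nfkb2, Nfkbid and Relb as well, and the part of these cells in the values of the family was not tested.

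Cells after culture were then set against naive cells. In Th0 against naive, 3 of the 10 genes rose (Bcl3, Rel and Relb) and 6 fell (Tnfaip3, Nfkbid, Nfkbiz, Nfkbia, Nfkb2 and Rela), where 67.7% of all genes were called, 31.3% higher and 36.4% lower. In Th17 against naive, 4 rose (Bcl3, Nfkb2, Nfkbia and Rel) and 4 fell (Tnfaip3, Nfkbiz, Rela and Nfkb1), where 63.2% of all genes were called, 30.4% higher and 32.8% lower. In Treg against naive, Bcl3 alone rose and 6 fell (Tnfaip3, Nfkbid, Nfkbiz, Nfkbia, Relb and Rela), where 56.6% of all genes were called, 27.6% higher and 29% lower. Medians of the 10 genes were -0.48 in Th0, 0.04 in Th17 and -0.43 in Treg against naive, beside -0.082, -0.028 and -0.013 over all genes. All 3 comparisons share the same naive libraries. Most genes were called in each of them, and nothing particular to the family is read from its counts of 9 in Th0, 8 in Th17 and 7 in Treg.

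**Figure D5:**
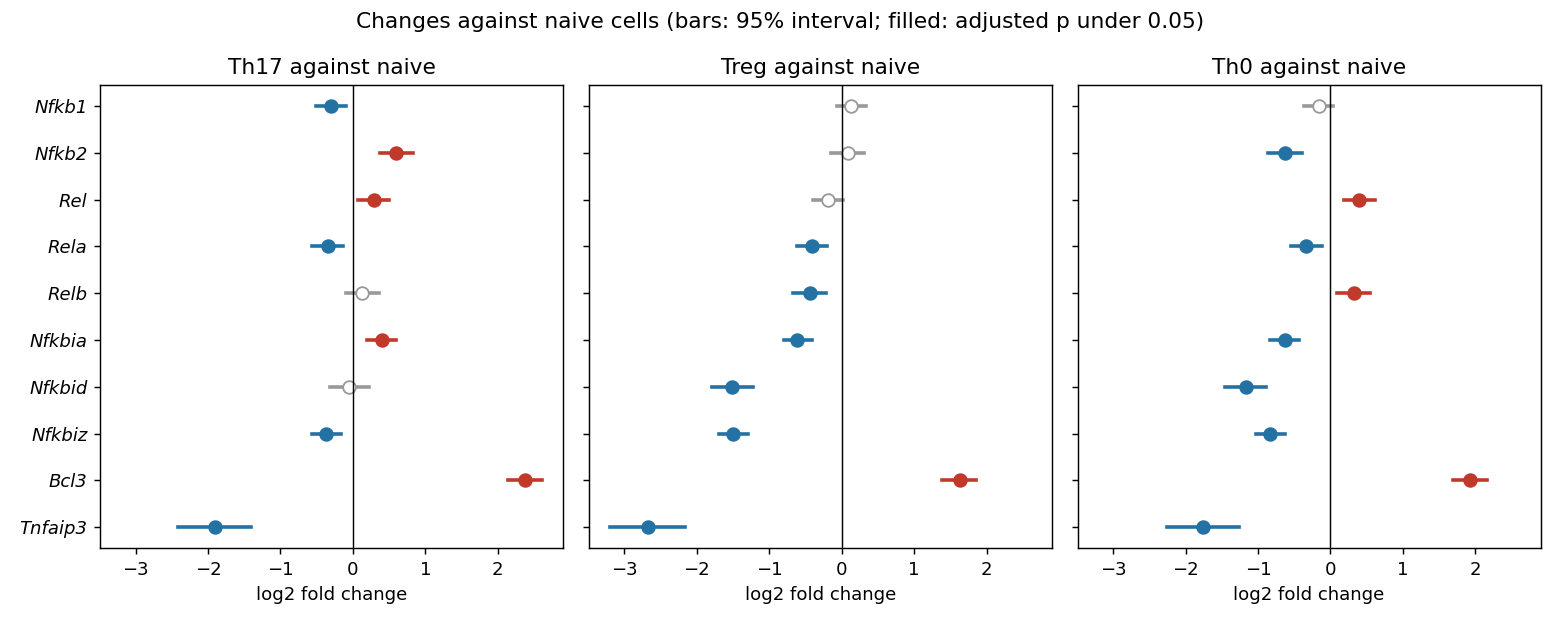
Log2 fold changes with 95% intervals of the 10 genes in Th17, Treg and Th0 against naive cells (edgeR, 2 libraries a group). Filled points passed an adjusted p of 0.05; Bcl3 is higher and Tnfaip3 lower in every cultured state, by 2.38 and -1.91 in Th17.

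Bcl3 had the greatest rise of the family against naive cells and Tnfaip3 the greatest fall. Bcl3 was 5.19-fold higher in Th17 (log2 fold change 2.38, edgeR, SE 0.1, adjusted p = 1.47e-07), 3.08-fold higher in Treg (1.63, edgeR, SE 0.1, adjusted p = 1.36e-06) and 3.81-fold higher in Th0 (1.93, edgeR, SE 0.1, adjusted p = 3.96e-07). Tnfaip3 averaged 286 ± 103 CPM in Th17, 167 ± 0.23 in Treg and 316 ± 58.3 in Th0, against 1073 ± 138 CPM in naive cells (SD, n = 2 each). These were 26.7%, 15.6% and 29.5% of the naive level (edgeR adjusted p = 6.84e-05, 1.02e-05 and 9.06e-05). Every cultured library lay below both naive libraries for Tnfaip3 and above both for Bcl3.

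Nfkbid, Nfkbiz and Nfkbia were lower than naive in Th0 and Treg, while in Th17 only Nfkbiz of these 3 was lower. Nfkbid was at 35.1% of the naive level in Treg (edgeR adjusted p = 8.01e-06) and 44.4% in Th0 (edgeR adjusted p = 2.82e-05). In Th17 it was at 96.7%, with an interval of the log2 fold change from -0.32 to 0.22. Nfkbiz was at 77.3% in Th17, 35.4% in Treg and 56.2% in Th0 (edgeR adjusted p = 0.00499, 1.06e-06 and 3.23e-05). Nfkbia, at 132% in Th17, was above naive (edgeR adjusted p = 0.00323), and it was at 65.7% in Treg and 64.5% in Th0 (edgeR adjusted p = 0.000315 and 0.000167). Nfkb2 stood at 152% of naive in Th17 (edgeR adjusted p = 0.000713), 106% in Treg (edgeR adjusted p = 0.519) and 64.9% in Th0 (edgeR adjusted p = 0.00051).

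The other subunits differed little from naive. Rela was lower in Th17, Treg and Th0, at 78.3%, 75.3% and 79.4% of the naive level (edgeR adjusted p = 0.00882, 0.00474 and 0.0106). The Rela calls were lost in Th17 without naive replicate 2 (-0.34, edgeR adjusted p = 0.0536), in Treg without Treg replicate 3 (-0.31, 0.0559), and in Th0 without naive replicate 2 (-0.33, 0.0563) or Th0 replicate 3 (-0.3, 0.0628). Rel was higher in Th0, at 132% (edgeR adjusted p = 0.0041), and in Th17, at 122% (edgeR adjusted p = 0.023). The Th17 rise was lost without naive replicate 2 (0.22, edgeR adjusted p = 0.164) or Th17 replicate 3 (0.23, 0.0962). Relb was lower in Treg, at 73.6% (edgeR adjusted p = 0.00514). It was higher in Th0, at 125% (edgeR adjusted p = 0.0186), a call lost without naive replicate 2 (0.25, edgeR adjusted p = 0.137), Th0 replicate 1 (0.32, 0.0682) or Th0 replicate 3 (0.35, 0.0504). Nfkb1 was lower in Th17, at 81% (edgeR adjusted p = 0.0155), which was lost without naive replicate 1 (-0.32, edgeR adjusted p = 0.0588), naive replicate 2 (-0.29, 0.0827) or Th17 replicate 3 (-0.25, 0.0767). Without naive replicate 2, the number of members called in Th17 against naive was 5.

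Markers of other cells and of handling also differed between naive and cultured libraries. A list of 11 immediate early and tissue dissociation genes, none a member of the family, summed to 956 to 1039 CPM in Th17, 583 to 589 CPM in Treg and 940.5 to 952 CPM in Th0, against 5092 to 5448 CPM in naive libraries. In Th0 against naive 9 of them fell and 2 rose. Fos lay at 10.9 and 7.16 CPM in Th0, against 819.5 and 704 CPM in naive libraries. The 2 that rose were the heat shock genes Hspa1a, at 165 and 177 CPM in Th0 against 11.1 and 3.9 CPM in naive libraries, and Hspa1b, at 247 and 286 CPM in Th0 against 6.84 and 1.95 CPM in naive libraries. All 14 myeloid and 6 red blood cell markers and all 10 B cell markers were lower in Th0 than in naive libraries. Myeloid cells express Tnfaip3, Nfkbia and Nfkbiz, and the part of those cells and of handling in the comparisons with naive cells was not tested.

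Genes that feed or answer the pathway were described from 7 lists holding 81 different genes, all tested. Of these, 26 rose and 18 fell in Th17 against Th0, 24 rose and 28 fell in Treg against Th0, and 26 rose and 14 fell in Th17 against Treg, where 28.7%, 46.2% and 29.2% of all genes were called. Against naive cells, 26 rose and 33 fell in Th17, 20 rose and 37 fell in Treg, and 22 rose and 37 fell in Th0, where 63.2%, 56.6% and 67.7% of all genes were called. Their median log2 fold changes were 0.13, -0.046 and 0.097 between cultured states and -0.011, -0.28 and -0.15 against naive, in the same order. Counts of single lists stand beside the same shares of all genes, and nothing particular to a list is read from them.

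Genes that link the antigen receptor to IKK differed between the cultured states. The protease and scaffold gene Malt1 averaged 1168 ± 29.6 CPM in Th17 and 329 ± 14.4 CPM in Treg, against 611 ± 1.83 CPM in Th0 (SD, n = 2 each). It rose in Th17 against Th0 (log2 fold change 0.93, edgeR, SE 0.08, adjusted p = 7.07e-05) and fell in Treg against Th0 (-0.89, edgeR, SE 0.08, adjusted p = 6.32e-05). Malt1 was also higher in Th17 than in Treg (1.83, edgeR, SE 0.082, adjusted p = 4.02e-06). Prkcq, encoding a kinase of antigen receptor signalling, fell in Th17 (-0.86, edgeR, SE 0.092, adjusted p = 0.000222) and in Treg against Th0 (-0.76, edgeR, SE 0.092, adjusted p = 0.000247).

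The IKK and upstream kinase list held 10 genes. Against Th0, 1 rose and 3 fell in Th17, and 1 rose and 4 fell in Treg, where 28.7% and 46.2% of all genes were called. Th17 against Treg gave 3 rises and no fall (median log2 fold change -0.12), where 29.2% of all genes were called. The IKK genes Chuk, Ikbkb and Ikbkg were not called there (-0.14, -0.12 and -0.25), and Chuk and Ikbkb fell in Th17 against Th0 (-0.33 and -0.39). The number called in Th17 against Th0 was 1 without Th0 replicate 3 and 2 without Th0 replicate 1 or Th17 replicate 3, and in Treg against Th0 it was 3 without Th0 replicate 3, Treg replicate 2 or Treg replicate 3. The 3 that rose in Th17 against Treg were Ikbke, a kinase related to IKK (log2 fold change 1.03, SE 0.11), Map3k14, which encodes NIK (0.65, SE 0.12), and the adaptor gene Tab2 (0.62, SE 0.14). Their edgeR adjusted p values were 0.000278, 0.00509 and 0.00971. Among 12 adaptors, Birc2, a ubiquitin ligase gene, was higher in Th17 (469.7 ± 49.7 CPM) than in Treg (206 ± 1.33 CPM; log2 fold change 1.19, edgeR, SE 0.092, adjusted p = 4.28e-05). In that contrast 2 adaptor genes rose, Birc2 and Traf3 (0.59), and 3 fell, Tradd (-0.88), Sharpin (-0.41) and Traf6 (-0.32). Fewer were called without Th17 replicate 3, Treg replicate 2 or Treg replicate 3. Against Th0, 1 adaptor gene rose and 3 fell in Th17, and 3 rose and 6 fell in Treg. Those contrasts called 28.7% and 46.2% of all genes. In Th17 against Th0, fewer adaptor genes were called without Th0 replicate 1, Th0 replicate 3 or Th17 replicate 3.

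Other inhibitors split in the same contrasts. Nfkbie, encoding the cytoplasmic inhibitor IkappaB epsilon, averaged 92.2 ± 5.47 CPM in Th17 and 61.1 ± 0.376 CPM in Treg, against 26.7 ± 2.6 CPM in Th0 (SD, n = 2 each). It rose by 1.79 in Th17 (edgeR, SE 0.13, adjusted p = 3.05e-05) and by 1.19 in Treg against Th0 (edgeR, SE 0.13, adjusted p = 0.000149). Zc3h12a, an RNase gene that curbs inflammatory transcripts, rose by 1.52 in Th17 against Th0 (edgeR, SE 0.11, adjusted p = 2.55e-05). Tnip3, whose product binds A20, averaged 32 ± 9.25 CPM in Th17 and 52.5 ± 4.87 CPM in Treg, against 111 ± 10 CPM in Th0. It fell in Th17 (-1.79, edgeR, SE 0.18, adjusted p = 0.000164) and in Treg against Th0 (-1.08, edgeR, SE 0.18, adjusted p = 0.00114), while naive cells had a mean of 1 CPM. Over the 12 genes of this list, 3 rose and 4 fell in Th17 against Th0, 2 rose and 6 fell in Treg against Th0, and 5 rose and 1 fell in Th17 against Treg, where 2 were called without Treg replicate 2.

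Receptors and ligands that signal to NF-kappaB differed in which members were high. Of 13 receptors, 6 rose and 2 fell in Th17 against Th0, where 28.7% of all genes were called. In Treg against Th0, 6 rose and 3 fell, where 46.2% were called. The rises in either contrast included Ltbr and Tnfrsf11a, which were near the floor in Th0, at 0.099 and 0.264 CPM. In Th17 they averaged only 0.911 and 1.66 CPM. The IL-1 receptor gene Il1r1 averaged 32.7 ± 4.96 CPM in Th17 and 5.93 ± 0.608 in Treg, against 1.57 ± 0.171 CPM in Th0 (SD, n = 2 each). Tnfrsf9, encoding the costimulatory receptor 4-1BB, averaged 252 ± 26 CPM in Th17 and 575 ± 4.82 in Treg, against 202 ± 34.9 CPM in Th0. Il1r1 was higher in Th17 than in Treg (log2 fold change 2.47, edgeR, SE 0.24, adjusted p = 0.000152) and Tnfrsf9 lower (-1.19, edgeR, SE 0.14, adjusted p = 0.000403). Of 10 ligands, 5 rose and 3 fell in Th17 against Th0, and 4 rose and 3 fell in Treg against Th0. These contrasts called 28.7% and 46.2% of all genes. Without Th0 replicate 3 or Th17 replicate 2, 5 ligands were called in Th17 against Th0. Lta, encoding lymphotoxin alpha, rose in Th17 (1.95, edgeR, SE 0.19, adjusted p = 0.000131) and in Treg against Th0 (2.67, edgeR, SE 0.19, adjusted p = 2.58e-05).

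A list of 25 textbook NF-kappaB targets shares Birc3, Traf1, Tnf, Lta and Ltb with the lists above. In Th17 against naive 7 rose and 14 fell (median log2 fold change -0.49), where 30.4% of all genes were called higher and 32.8% lower. In Treg against naive 8 rose and 14 fell (median -0.98), where these shares were 27.6% and 29%. In Th0 against naive 3 rose and 17 fell (median -0.98), where they were 31.3% and 36.4%. Medians over all genes were -0.028, -0.013 and -0.082. The list holds chemokine genes that myeloid cells express, among them Ccl3, at a mean of 0.38 CPM in Th0 against 18.9 CPM in naive libraries. The part of myeloid cells in the counts of this list was not tested. In Th17 against Th0, 11 rose and 3 fell (median 0.48), where 16.1% of all genes were called higher and 12.6% lower. In Treg against Th0, 10 rose and 3 fell (median 0.18), where these shares were 25.7% and 20.6%. In Th17 against Treg, 6 rose and 4 fell (median -0.095), where they were 14.8% and 14.5%. Medians over all genes were 0.048, 0.085 and -0.031 in these contrasts. The number called was 9 in Th17 against Th0 without Th0 replicate 3, and in Th17 against Treg it was 5 without Treg replicate 2 and 6 without Treg replicate 3. Il2ra, the IL-2 receptor alpha chain, averaged 731 ± 139.7 CPM in Th17 and 1196 ± 56.3 CPM in Treg, against 315 ± 11.8 CPM in Th0 (SD, n = 2 each). Cd83, a surface protein gene, was higher in Th17 than in Treg (95.3 ± 10.6 and 45.4 ± 6.45 CPM; log2 fold change 1.07, edgeR, SE 0.14, adjusted p = 0.000624).

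Genes with the most similar pattern to each member were sought among 9045 genes with a mean of at least 10 CPM, by the root mean square difference of centred log2 CPM over the 8 libraries. The nearest gene lay within 0.0335 for Nfkb1 (Fmr1), 0.0477 for Rela (Xab2), 0.0485 for Rel (Pnpla8) and 0.0499 for Relb (Zpr1). For members that vary more, the nearest gene was farther, at 0.0914 for Nfkb2 (Ssbp4), 0.0968 for Nfkbiz (Ramp1), 0.111 for Bcl3 (Padi2) and 0.117 for Nfkbia (Fam102a). It was 0.158 for Nfkbid (Pqlc1) and 0.216 for Tnfaip3 (Casp1). Cd83 was the second nearest to Nfkbiz, at 0.105. Within the family, the closest pairs after Rel with Relb were Nfkb1 with Rela (0.214), Nfkbid with Nfkbiz (0.246) and Nfkb2 with Nfkbia (0.291). The least alike were Bcl3 and Tnfaip3 (1.82). A small difference also arises between genes that vary little. Group means of Nfkb1 and Rela spanned only 1.35-fold and 1.33-fold, and Treg was highest for Nfkb1 but lowest for Rela.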

How the data were processed

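Per the labels' protocols, RNA was isolated with TRIzol and the libraries were run on an Illumina HiSeq platform. The submitters' processing notes name Bowtie2, RSEM, GRCm38.p6 and mm10; roles, versions, annotation and strandedness are not given in the sources used here. Reads of a gene and its antisense partner may thus be mixed. Per the file headers, 1 table holds a count and an FPKM value per gene and library. The deposited counts are whole numbers, and no source says whether they were rounded from estimates. The authors' FPKM values equal the count divided by library total and 1 length per gene (within 0.001 for 100% of 134607 values above 0). They hold no TMM factors. FPKM was used to compare genes within a group, and for sums, shares and ratios within a library. Levels of a gene were compared between groups by CPM.

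The test on counts was that of edgeR 4.0.16 under R 4.3.3 (filterByExpr by group, TMM factors, glmQLFit and glmQLFTest), with 8 libraries in 1 fit of 4 group means. Residual degrees of freedom were 4 (median prior 5.22). P-values were adjusted by Benjamini-Hochberg over 14690 genes per contrast, and called under 0.05. SE is the log2 fold change over the square root of F; intervals are 95%. The test was checked on simulated data. Members and lists were chosen with earlier results of these data known. Named genes were all members, up to 4 called genes with the greatest change per list and contrast, and the nearest genes in pattern. Subunit shares and the Nfkbia ratio were chosen after values were seen. Alternatives were RLE and upper-quartile scaling, DESeq2 1.42.0, other filters, fits of 2 groups, a block for replicate number, and omission of single libraries. Replicate numbers were not said to mark shared animals or days.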

Additional observations from a re-analysis of the deposited data

Results flagged for a closer look

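The changes of Th17 and Treg cells against Th0 differed for 9 of the 10 genes, by the direct test of Th17 against Treg, in which 29.2% of all genes were called. Log2 differences, Th17 minus Treg, were 1.46 for Nfkbid, 1.13 for Nfkbiz, 1 for Nfkbia, 0.77 for Tnfaip3, 0.75 for Bcl3, 0.57 for Relb, 0.52 for Nfkb2, 0.48 for Rel and -0.44 for Nfkb1. Malt1, upstream of the family in the antigen receptor pathway, was higher in Th17 than in Treg by 1.83. B cell markers were higher in Th17 libraries in the same contrast (570.1 to 615 CPM in Th17 and 154 to 158 CPM in Treg), and their part was not tested.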

How the results depend on the processing

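The 10 genes gave 60 changes over 6 contrasts, each recomputed under 15 alternatives. Of these 900 values none changed sign with a call, 856 stayed on their side of the threshold, 37 lost a call and 7 gained one. The number of members called ranged, when single libraries were left out, from 7 to 9 in Th0 against naive, 5 to 8 in Th17 against naive, 6 to 7 in Treg against naive, 4 to 5 in Th17 against Th0, 5 to 7 in Treg against Th0 and 7 to 9 in Th17 against Treg; the cause was not tested. RLE scaling and DESeq2 each took away the rise of Nfkb1 in Treg against Th0 (0.24 by either, adjusted p = 0.0545 with edgeR and 0.0524 with DESeq2), and that of Rel in Th17 against naive (0.25, adjusted p = 0.0533 with edgeR and 0.0513 with DESeq2). Under upper-quartile scaling, Nfkb1 passed in Th0 against naive (-0.22, edgeR adjusted p = 0.0473). Scaling moved the median of all genes by at most 0.062. Replicate numbers were shared by only some groups. In the same-numbered pairs of libraries that were compared, deviations correlated at -0.05 to 0.17 across 9517 genes. Naive replicate 2 was not compared with Treg replicate 2. With the replicate number as a block, 7 members were called in Th0 against naive, 7 in Th17 against naive, 7 in Treg against naive, 5 in Th17 against Th0, 5 in Treg against Th0 and 9 in Th17 against Treg. Calls not made under the block were Rela (-0.28, edgeR adjusted p = 0.0532) and Relb (0.25, 0.0726) in Th0 against naive, Rel in Th17 against naive (0.26, 0.091), and Nfkb1 (0.25, 0.1) and Bcl3 (-0.26, 0.125) in Treg against Th0. Calls of all genes in Th17 against Th0, 4211 in number, were 2798 without Th0 replicate 3 and 2630 without Th17 replicate 2; in Th17 against Treg, 4294 became 2444 without Th17 replicate 3 and 1878 without Treg replicate 2. Of 42 counts of the 7 lists by contrast, 14 moved by over 1.5 times in at least 1 alternative.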
